A study of Mus musculus with 3 samples.

Results

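The genes described here encode RNA polymerase II (Pol II) and the proteins that load it, hold it near the start site, release it and end transcription. They were picked by name from a list of 50 symbols in 9 role groups, and all 50 were found among the 55536 annotated gene entries. The RNA came from the chromatin fraction of macrophages that had been derived from C57BL/6J mouse bone marrow and had been exposed to lipid A at 100 ng/ml for 90 minutes. Lipid A is the part of bacterial lipopolysaccharide that Toll-like receptor 4 detects, and chromatin RNA holds transcripts still attached to DNA together with RNAs retained in the nucleus. The 3 biological replicates formed 1 group, carried the same donor label, and were made from 1 µg, 250 ng and 500 ng of ribosome-depleted RNA in replicates 1, 2 and 3, which means that the amount cannot be told apart from the replicate. Sex and age were not collected, per the labels. Unstimulated cells were not analysed here, so every value is a level after stimulation and not a change caused by it.

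The libraries held between 11277198 and 24965749 expected counts. A ribosomal RNA locus took 9.3%, 50.8% and 38.3% of them in the order of the replicate numbers. Of 10 macrophage markers, 8 lay above the reference defined below, and their summed TPM (an abundance scaled for transcript length and library total) was 1227, 664 and 879 in replicates 1 to 3. The summed TPM of 5 T and NK cell markers was 2.03, 0.10 and 1.33, nearly all of it from Lck, with Cd3e, Ncr1 and Cd8a at 0 in every library. B cell and neutrophil markers summed to at most 0.12 TPM in any library. Dendritic cell markers summed to between 1.43 and 1.69 TPM, mostly Zbtb46, and stromal and endothelial markers to between 0.32 and 1.75 TPM.

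Pol II assembles with initiation factors and the Mediator complex at promoters, starts, and then often stops shortly downstream, held by DSIF (Supt4a, Supt5) and NELF (Nelfa, Nelfb, Nelfe). The kinase P-TEFb, made of Cdk9 and a T-type cyclin, phosphorylates these factors and the polymerase tail and lets elongation begin. P-TEFb is kept inactive in a complex of Hexim1, Larp7 and the noncoding 7SK RNA and is carried to genes by the super elongation complex. Release of paused Pol II is a known step in the induction of inflammatory genes in macrophages.

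The 7SK RNA is shown first because it is the scaffold on which Hexim1 and Larp7 sit. Its gene, Rn7sk, lies at 9:78175303-78175633 on the minus strand of mm10 and is annotated as a 331-base noncoding RNA. The first 110 bases of the annotated transcript, written as DNA, are given with the sequence GATC in capitals, which is the element that HEXIM1 binds in the first hairpin of the human RNA.
Rn7sk: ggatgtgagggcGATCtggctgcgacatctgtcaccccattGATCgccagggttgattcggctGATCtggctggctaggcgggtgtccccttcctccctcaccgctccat
GATC starts at bases 13, 42 and 64 of this stretch. Rn7sk had 12192, 7747 and 9656 TPM in replicates 1, 2 and 3, with 21835, 19587 and 21297 expected counts. Its effective length, by which TPM is scaled, was only 128, 92.5 and 104 bases, and the genome holds many related copies, so its TPM is uncertain. The alignment-free quantification of the same libraries gave 10363, 2520 and 5497 TPM, lower in every library. Once each table is centred on its own median over protein-coding genes, as for the levels below, the difference was 1.44 ± 0.28 log2 units (SD, n = 3) and was not called (adjusted p = 0.210, limma treat).

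The promoters of 3 members mark the ends of the range seen among the P-TEFb genes and their partners: Ell2 and Cdk9, among the highest members, and Hexim1, among the lowest. Each is given 5′ to 3′ from 250 bases before the RefSeq start to 10 bases after it (GRCm38.p6), with the matches to 5 motifs in capitals on either strand. The Ell2 stretch is chr13:75707234-75707493 on the plus strand, the Cdk9 stretch chr2:32712775-32713034 on the minus strand, and the Hexim1 stretch chr11:103116075-103116334 on the plus strand.
Ell2: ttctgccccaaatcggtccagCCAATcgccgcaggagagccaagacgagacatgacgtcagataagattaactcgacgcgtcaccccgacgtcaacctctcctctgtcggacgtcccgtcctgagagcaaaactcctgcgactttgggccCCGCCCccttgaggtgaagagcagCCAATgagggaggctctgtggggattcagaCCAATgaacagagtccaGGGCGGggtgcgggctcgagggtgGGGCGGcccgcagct
Cdk9: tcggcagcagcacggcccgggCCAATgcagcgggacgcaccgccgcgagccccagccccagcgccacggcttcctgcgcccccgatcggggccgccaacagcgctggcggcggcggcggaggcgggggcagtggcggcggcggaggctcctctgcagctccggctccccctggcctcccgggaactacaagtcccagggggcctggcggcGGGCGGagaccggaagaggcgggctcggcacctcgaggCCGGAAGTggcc
Hexim1: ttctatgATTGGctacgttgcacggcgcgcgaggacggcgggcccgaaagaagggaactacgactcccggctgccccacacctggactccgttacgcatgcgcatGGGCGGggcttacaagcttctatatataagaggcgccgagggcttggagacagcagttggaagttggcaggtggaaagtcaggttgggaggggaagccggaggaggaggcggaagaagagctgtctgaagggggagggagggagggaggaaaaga
Capitals mark the GC box (GGGCGG), the CCAAT box (CCAAT) and, in Cdk9, an ETS site (CCGGAAGT), and no 2 matches overlap. Ell2 held 3 GC boxes and 3 CCAAT boxes, Cdk9 1 GC box, 1 CCAAT box and 1 ETS site, and Hexim1 1 GC box and 1 CCAAT box. Over the full window of 250 bases before to 50 after the start, 44 of the 50 members had a promoter in the RefSeq table. For each gene 1 promoter was taken, and where several were listed it was that with the lowest coordinate, whatever the strand. The GENCODE M21 annotation, used for the levels, begins Ell2, Cdk9 and Hexim1 upstream of the RefSeq start used here. The GC box stood in 81.8% of the 44 member promoters, against 64.8% of 8351 promoters of tested protein-coding genes and 35.7% of all 32851 promoters of the table. The median GC content was also higher in the member promoters, 64.2%, against 61% in those of tested protein-coding genes. The ETS site stood in 10 member promoters (22.7%), against 9.27% of the tested protein-coding genes and 3.89% of all promoters. The CCAAT box stood in 34.1% of members, 38.1% of tested protein-coding genes and 37.4% of all promoters. The TATA box (TATAAA) stood in 4 member promoters (9.09%), those of Gtf2f1, Nelfb, Polr2a and Polr2c, against 6.73% of the tested protein-coding genes and 13.6% of all promoters. Only these exact letters were counted, so variants such as the tatataag of the Hexim1 stretch were not matches. The NF-kB consensus stood in 1, that of Paf1 (2.27%), against 5.20% of the tested protein-coding genes and 4.51% of all promoters. These are matches of letters in a short window and were given no test.

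Levels were expressed as log2(TPM + 1) after subtraction of the median over 10530 tested protein-coding genes of the same library, which lay at 5.5, 3.7 and 4.93 TPM in replicates 1, 2 and 3. A gene was called above or below this reference where its level lay more than 1 log2 unit (2-fold) from it by limma's treat test, at an adjusted p under 0.05 over all 13434 tested genes. Of the 50 members, 49 passed the minimum mean of 10 expected counts; Polr2h, a small subunit, did not. Of the 49 tested members, 20 were called above and 1 below, which is 40.8% and 2.04%. The background was 21.3% above and 21.3% below over all tested genes, and 24.1% above and 19.5% below over tested protein-coding genes. The median level of the 49 members was 1.20, and by library it was 1.00, 1.21 and 1.23, where the median of protein-coding genes is 0 by construction. The median TPM was 12.7 over the tested members and 4.86 over tested protein-coding genes. With a minimum of 100 expected counts, 8 of the 20 were not called above: Taf1, Gtf2f1, Med13, Supt5 (adjusted p = 0.117), Ccnt1 (level 1.08, adjusted p = 0.722), Supt6, Supt16 and Pcf11. The calls were unevenly spread over the roles. None of 6 tested Pol II subunits lay above. Of 4 super elongation complex genes 3 did, and of 5 genes of P-TEFb and its inhibitors 3 did. Among other tested genes of the same 3 roles, 0 of 11, 2 of 6 and 1 of 3 lay above, in that order. The member list was drawn up with earlier results of these data known, so these shares do not describe the pathway as a whole.

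**Figure D1:**
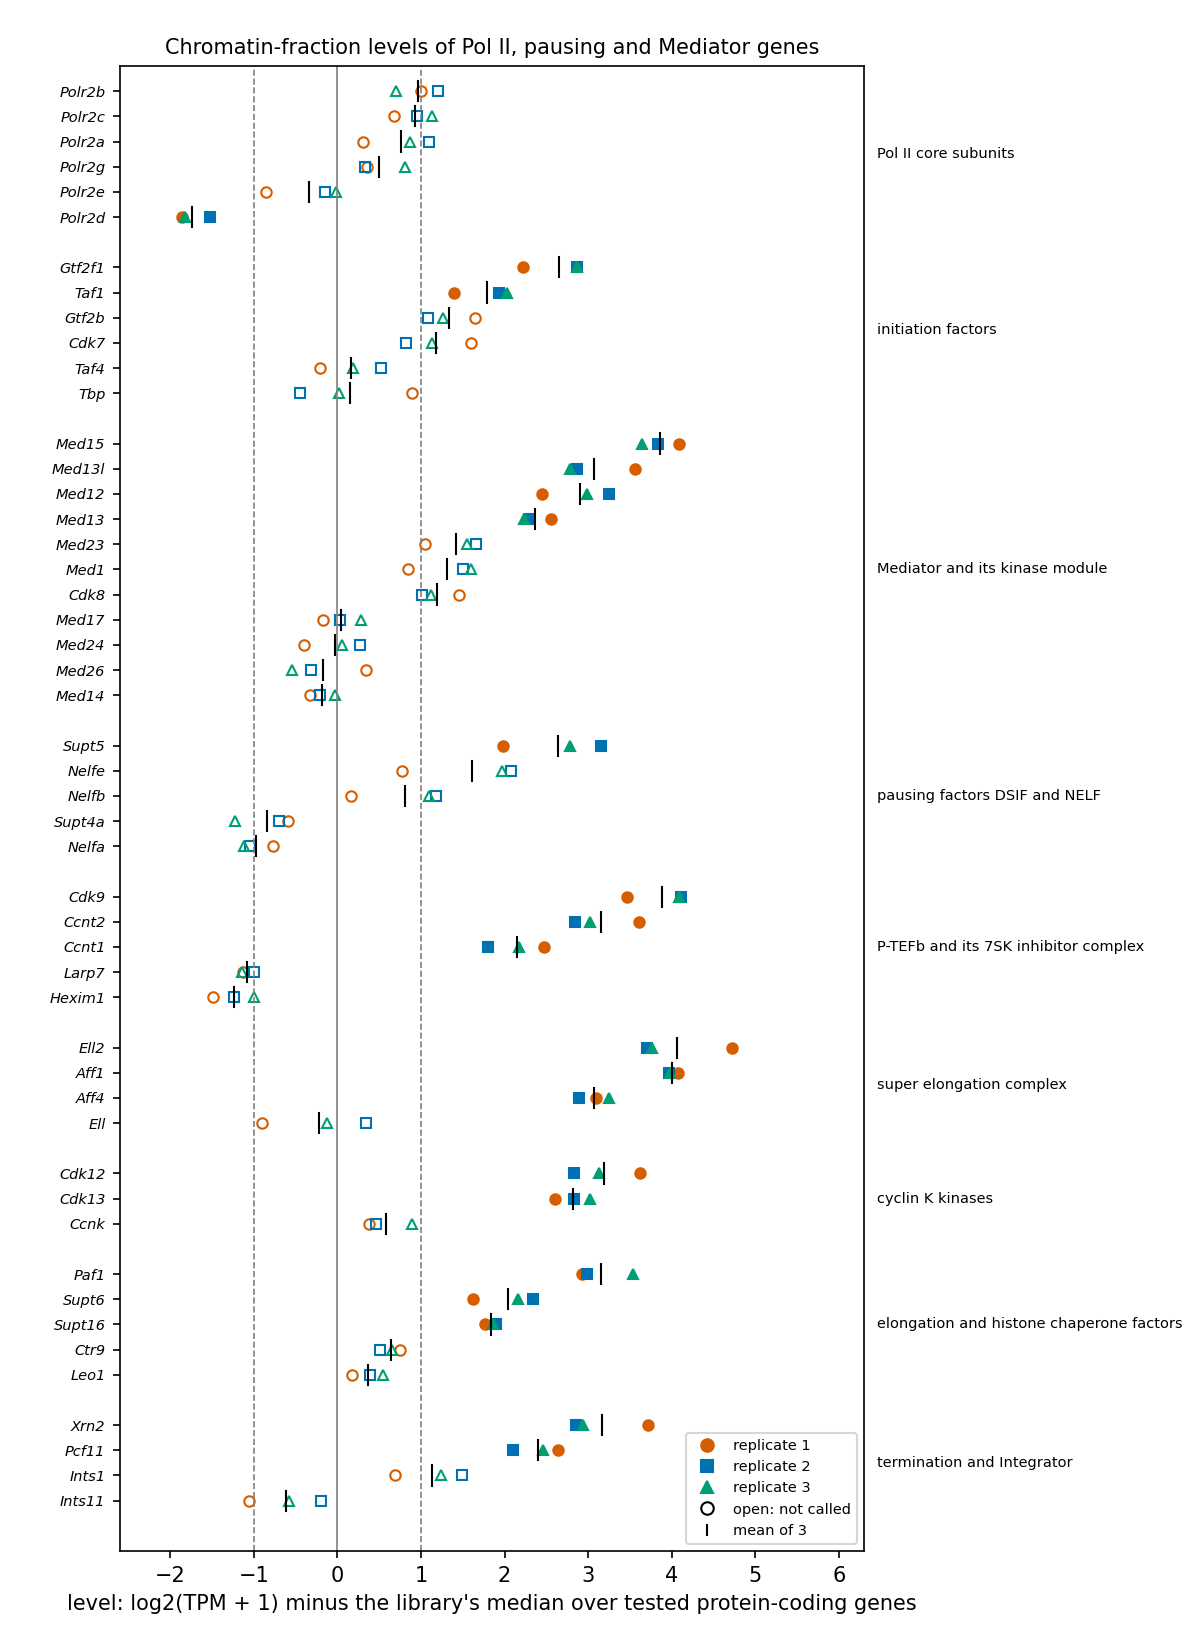
Level of each of the 49 tested members in each library (log2(TPM + 1) minus the library's protein-coding median; filled symbols were called above or below, open ones were not, bars are means of 3, dashed lines the 1 log2 unit bounds). Ell2, Aff1, Cdk9 and Med15 lie highest, and Polr2d is the only one called below.

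Pol II core subunits stood near the reference. The largest subunit, Polr2a, which carries the repetitive tail that the transcription kinases phosphorylate, had 7.02, 9.07 and 9.84 TPM. Polr2b, the second large subunit, which shares the active site, had 12.0, 9.86 and 8.62 TPM, the highest level of the group at 0.97 ± 0.26 (SD, n = 3; adjusted p = 0.905). Polr2c, of the assembly platform, had 9.43, 8.11 and 12.0 TPM. On the scale of log2(TPM + 1), the mean levels of all 3 lay less than 1 log2 unit above the reference. With a pseudocount of 0.1 the levels of Polr2a, Polr2b and Polr2c were 0.87, 1.10 and 1.05, and none was called. Polr2g, a subunit of the stalk, had 7.34, 4.92 and 9.35 TPM. Polr2e, a subunit shared by all 3 nuclear polymerases, had 2.60, 3.24 and 4.85 TPM and a level of -0.34 ± 0.45, the lowest not called (adjusted p = 1). The partner of Polr2g in the stalk, Polr2d, had 0.80, 0.63 and 0.67 TPM from a mean of 11 expected counts. Polr2d was called below at -1.74 ± 0.18 (adjusted p = 0.0063), and without replicate 3 the call was lost (adjusted p = 0.075). Polr2h, also a shared subunit, had 0.30, 0.55 and 0.41 TPM from a mean of 6 expected counts. The 7 subunits of a complex with fixed proportions thus ranged from 0.42 to 10.2 mean TPM in chromatin RNA. The other 11 genes of the list for this role, all tested, ranged in level from -1.53 to -0.21, none above and 1, Gpn3, below. Among 17 tested subunits of Pol I and Pol III, 1 was above (Polr3c) and 2 below (Polr3k, Crcp), with a median level of -0.34.

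Of 6 initiation factors, 2 were above. Gtf2f1, the large subunit of TFIIF, had 29.3, 33.4 and 42.2 TPM and a level of 2.65 ± 0.37 (adjusted p = 5.4e-04). Taf1, the largest subunit of TFIID, had 16.2, 16.9 and 23.2 TPM and a level of 1.79 ± 0.34 (adjusted p = 0.0083). The Taf1 call was lost without replicate 3 (adjusted p = 0.096) and in the alignment-free table (level 1.17, adjusted p = 0.347). Gtf2b, TFIIB, which bridges TBP and the polymerase, had 19.4, 8.97 and 13.3 TPM, a level of 1.33 ± 0.29 that was not called (adjusted p = 0.118). Cdk7, the kinase of TFIIH, had 18.7, 7.29 and 12.0 TPM. Both were highest in replicate 1 on either scale. Taf4, a TFIID scaffold subunit, had 4.65, 5.74 and 5.76 TPM. Tbp, the TATA-binding protein, had 11.1, 2.44 and 5.01 TPM, with the lowest level of the group at 0.15 ± 0.68 (adjusted p = 1) and a spread over libraries near the widest of any member. Among 29 other initiation genes, 2 were above (Taf15 and Btaf1) and 3 below (Taf4b, Taf5 and Taf12).

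Mediator joins activators to Pol II, and its kinase module (Cdk8 or Cdk19, cyclin C, Med12 and Med13 or their paralogs) controls that contact. Of 11 Mediator members, 4 were above, and 3 of these 4 belong to the kinase module. Med15, a tail subunit that activators contact, had 109, 66.2 and 73.0 TPM and a level of 3.86 ± 0.22 (adjusted p = 2.8e-05). Med13l, which links the kinase module to the core, had 75.5, 33.4 and 39.97 TPM and a level of 3.07 ± 0.42 (adjusted p = 2.4e-04). Med12, which activates the kinase, had 34.5, 43.7 and 46.2 TPM and a level of 2.90 ± 0.41 (adjusted p = 3.4e-04). Med12 was lowest in replicate 1, where Med13l and Med15 were highest. Med13, the paralog of Med13l, had 37.2, 22.1 and 27.0 TPM and a level of 2.36 ± 0.17 (adjusted p = 5.8e-04). The kinase itself, Cdk8, had 16.8, 8.49 and 11.9 TPM and was not called. Med23, a tail subunit, had 12.5, 13.9 and 16.4 TPM and the highest level not called, 1.42 ± 0.33 (adjusted p = 0.0704); without replicate 1 it was above. Med1, the subunit that nuclear receptors contact, had 10.7, 12.3 and 17.0 TPM and was likewise above without replicate 1. The remaining subunits sat at the reference. Med17, of the head module, had 4.76, 3.79 and 6.24 TPM. Med24, of the tail, had 3.94, 4.65 and 5.15 TPM. Med26, through which the core recruits the super elongation complex, had 7.25, 2.79 and 3.08 TPM, the first value more than 2-fold the others. The Med26 gene overlaps the antisense entry Gm17435 on the opposite strand, which had 25.4, 5.97 and 7.56 TPM. How reads in this overlap were divided is not stated. Med14, the backbone of the complex, had 4.19, 3.08 and 4.80 TPM and the lowest level of the group, -0.19 ± 0.15 (adjusted p = 1). Of the other Mediator genes on the list, 21 of 22 were tested, 2 were above (Med8 and Med20) and 4 below (Med9, Med12l, Med18 and Cdk19).

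Of the 5 pausing factors, the large DSIF subunit Supt5 was the only one above. Supt5 had 24.7, 40.8 and 39.8 TPM and a level of 2.64 ± 0.60 (adjusted p = 0.0013). Supt4a, its small partner, had 3.31, 1.90 and 1.53 TPM from a mean of 21 expected counts. These partners, which bind one to one in the protein complex, lay on opposite sides of the reference in every library. Nelfe, the RNA-binding NELF subunit, had 10.2, 18.9 and 22.2 TPM, a level of 1.61 ± 0.72 that was not called (adjusted p = 0.0774), and the widest spread over libraries of all members. Without replicate 1, Nelfe was above at 2.04. Nelfb, a scaffold subunit, had 6.28, 9.64 and 11.7 TPM. Supt5, Nelfb and Nelfe were all lowest in replicate 1. Nelfa had 2.80, 1.28 and 1.74 TPM and the lowest level of the group, -0.98 ± 0.18 (adjusted p = 0.888). The Nelfa gene overlaps Nsd2 on the opposite strand, which had a mean of 27.9 TPM, but only over 5:33897916-33897975, at 1 end of each gene. The labels do not say whether counting used the strand.

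The catalytic and cyclin subunits of P-TEFb were all above. Hexim1 and Larp7, of its 7SK inhibitor complex, lay under the reference in every library without being called. Cdk9, the kinase (2:32705784-32713076, minus strand), had 70.5, 80.5 and 100.2 TPM and a level of 3.89 ± 0.37 (adjusted p = 4.6e-05). Ccnt2 had 78.4, 32.6 and 47.3 TPM and a level of 3.16 ± 0.40 (adjusted p = 1.8e-04). Ccnt1 had 34.9, 15.3 and 25.8 TPM and a level of 2.15 ± 0.34 (adjusted p = 0.0018). Both cyclins were highest in replicate 1 and lowest in replicate 2, whereas Cdk9 was lowest in replicate 1. Larp7, which holds 7SK RNA in its particle, had 1.98, 1.35 and 1.70 TPM and a level of -1.09 ± 0.08 (adjusted p = 0.528). Hexim1, which blocks the kinase when bound to 7SK RNA, had 1.32, 0.99 and 1.97 TPM and a level of -1.24 ± 0.24 (adjusted p = 0.208). Every library gave the order of both cyclins and Cdk9 over Hexim1 and Larp7 with no overlap. In the alignment-free table both of these genes were called below, Hexim1 at -2.02 (adjusted p = 0.0025) and Larp7 at -1.66 (adjusted p = 0.010). Hexim1 is the only member whose longest coding transcript has 1 exon. Hexim2, the paralog of Hexim1 and one of the other genes on this list, was below with 0.65, 0.33 and 0.89 TPM and a level of -1.82 ± 0.16 (adjusted p = 0.0039). Rn7sk itself was above at 10.7 ± 0.11.

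The super elongation complex carries P-TEFb on an AFF scaffold together with an ELL factor, which raises the rate of Pol II. Ell2 (13:75706757-75772364, plus strand) had 170, 60.04 and 79.3 TPM and the highest mean level of all members, 4.06 ± 0.57 (adjusted p = 8.7e-05). Aff1 (5:103692374-103855322, plus strand) had 109, 72.6 and 92.6 TPM, a level of 4.01 ± 0.06 (adjusted p = 1.7e-05) and the smallest spread of all tested members. Aff4 had 54.4, 33.8 and 55.3 TPM and a level of 3.08 ± 0.18 (adjusted p = 8.9e-05). The means of Ell2, Aff1, Cdk9 and Med15 differed from each other by less than the spread of Ell2 over libraries, so that their order is not resolved. Ell, the paralog of Ell2, had only 2.49, 4.98 and 4.45 TPM and a level of -0.22 ± 0.63 (adjusted p = 1). Of the other 9 genes on the list, 6 were tested, 2 were above (Ice1, at 23.3, 22.8 and 24.0 TPM with a level of 2.11 ± 0.22, and Eaf1, at 22.4, 20.1 and 26.2 TPM with a level of 2.07 ± 0.19; adjusted p = 0.0014 and 0.0015) and Ell3 was below.

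Both cyclin K kinases, which phosphorylate the Pol II tail during elongation, were above. Cdk12 had 78.8, 32.5 and 50.9 TPM and a level of 3.19 ± 0.40 (adjusted p = 1.7e-04). Cdk13 had 38.5, 32.4 and 47.1 TPM and a level of 2.82 ± 0.21 (adjusted p = 1.8e-04). Their shared cyclin, Ccnk, lay lower in every library, with 7.48, 5.46 and 9.98 TPM and a level of 0.58 ± 0.27 that was not called (adjusted p = 1).

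Of 5 elongation and histone chaperone genes, 3 were above. Paf1, which names the PAF complex that travels with Pol II, had 48.5, 36.2 and 67.7 TPM and a level of 3.15 ± 0.34 (adjusted p = 1.4e-04). Supt6, a histone chaperone, had 19.0, 22.7 and 25.6 TPM and a level of 2.04 ± 0.37 (adjusted p = 0.0031). Supt16, the large subunit of the FACT histone chaperone, had 21.03, 16.6 and 20.5 TPM and a level of 1.84 ± 0.07 (adjusted p = 0.0029). The other 2 PAF complex members stood well under Paf1 in every library. Ctr9 had 9.96, 5.70 and 8.34 TPM and a level of 0.64 ± 0.12 (adjusted p = 1), and Leo1 had 6.35, 5.15 and 7.63 TPM and a level of 0.37 ± 0.18 (adjusted p = 1). A further PAF subunit from the list, Cdc73, was above with 31.4, 19.8 and 25.8 TPM and a level of 2.21 ± 0.09 (adjusted p = 7.9e-04). Setd2, the methyltransferase that marks histone H3 behind elongating Pol II, had the highest level of all other pathway genes, 3.74 ± 0.17, with 74.8, 68.3 and 80.5 TPM (adjusted p = 2.8e-05).

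Among the termination and Integrator genes, both termination factors were above and both Integrator subunits were not called. Xrn2, the nuclease that degrades the RNA behind cleaved transcripts, had 84.4, 33.0 and 44.4 TPM and a level of 3.17 ± 0.48 (adjusted p = 2.6e-04). Pcf11, which binds the Pol II tail at transcript ends, had 39.4, 19.2 and 31.8 TPM and a level of 2.40 ± 0.27 (adjusted p = 7.2e-04). Both were highest in replicate 1 and lowest in replicate 2. Ints1, the largest Integrator subunit, had 9.46, 12.2 and 13.0 TPM and a level of 1.14 ± 0.41 (adjusted p = 0.470), and without replicate 1 it was above. Ints11, the catalytic subunit, had 2.13, 3.12 and 2.96 TPM and a level of -0.61 ± 0.43 (adjusted p = 1). Of the other 29 genes of this role, 7 were above and 1, Ints9, was below. The highest of the 7 were Scaf4 with a level of 2.38 ± 0.18 (adjusted p = 5.0e-04), Ints8 with 2.12 ± 0.16 (adjusted p = 0.0011) and Ints6l with 2.11 ± 0.23 (adjusted p = 0.0014).

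Across all roles, 113 other genes of the same complexes were found and 108 tested, of which 16 were above (14.8%) and 11 below (10.2%), with a median level of -0.20. The highest included Setd2, Taf15 (3.38 ± 0.42), Scaf4, Btaf1 (2.28 ± 0.38), Cdc73, Ints8, Ints6l, Ice1 and Eaf1. Taf15 had 92.3, 37.5 and 56.0 TPM (adjusted p = 1.3e-04) and Btaf1 had 41.6, 17.8 and 25.1 TPM (adjusted p = 0.0014). The 11 below ranged from -1.49 (Ints9) to -2.28 (Med12l). Besides Hexim2, Med12l and Cdk19, they were Ints9 (adjusted p = 0.024), Gpn3 at -1.53 (0.020), Taf4b at -1.66 (0.0090), Taf5 at -1.67 (0.012), Med18 at -1.75 (0.0065), Taf12 at -1.77 (0.014), Med9 at -1.86 (0.0030) and Ell3 at -1.88 (0.0026), with adjusted p from limma treat in parentheses. None of these 8 reached 2 TPM in any library. Taf12 was also called lower in the alignment-based than in the alignment-free table, as given later, so its call below rests on the alignment-based table. The members' 40.8% above and the other genes' 14.8% therefore lay on opposite sides of the 24.1% of protein-coding genes. The member list was drawn up with earlier results of these data known, so this contrast says nothing about the pathway as a whole. Of 10 tested SR proteins, which splice nascent transcripts, 9 were above, with Srsf5 at 403, 305 and 448 TPM.

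Paralogs that can fill the same place in a complex were compared as 7 pairs within each library. The smallest p an exact two-sided sign-flip test can give with 3 libraries is 0.25, so no pair could reach 0.05, and each of the 7 had p = 0.25 both before and after adjustment over the 7. Ell2 exceeded Ell by 4.28 ± 1.19 log2 units (SD, n = 3), in 3 of 3 libraries, with the largest gap in replicate 1. Med12 exceeded Med12l by 5.18 ± 0.17; Med12l had 0.12, 0.14 and 0.24 TPM and was called below at -2.28 ± 0.25 (adjusted p = 9.3e-04). Cdk8 exceeded Cdk19 by 3.31 ± 0.35; Cdk19 had 0.41, 0.22 and 0.31 TPM and was called below at -2.11 ± 0.14 (adjusted p = 0.0011). The pseudocount of 1 bears on both differences, which were 7.30 and 4.89 with a pseudocount of 0.1. In these 3 pairs the libraries of 1 paralog and those of the other did not overlap in TPM, and the same held for Aff4 and Aff1. The pairs other than these 3 were closer in mean difference. Med13l exceeded Med13 by 0.71 ± 0.25 in 3 of 3 libraries. Ccnt1 lay under Ccnt2 by a difference of -1.01 ± 0.15, and Aff4 lay under Aff1 by a difference of -0.93 ± 0.18, each in 3 of 3 libraries. In the alignment-free table these 2 differences were -0.07 and -0.24. Cdk12 exceeded Cdk13 by 0.38 ± 0.56, and this rested on replicate 1, without which the difference was 0.06. In the alignment-free table it was 0.0045.

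**Figure D2:**
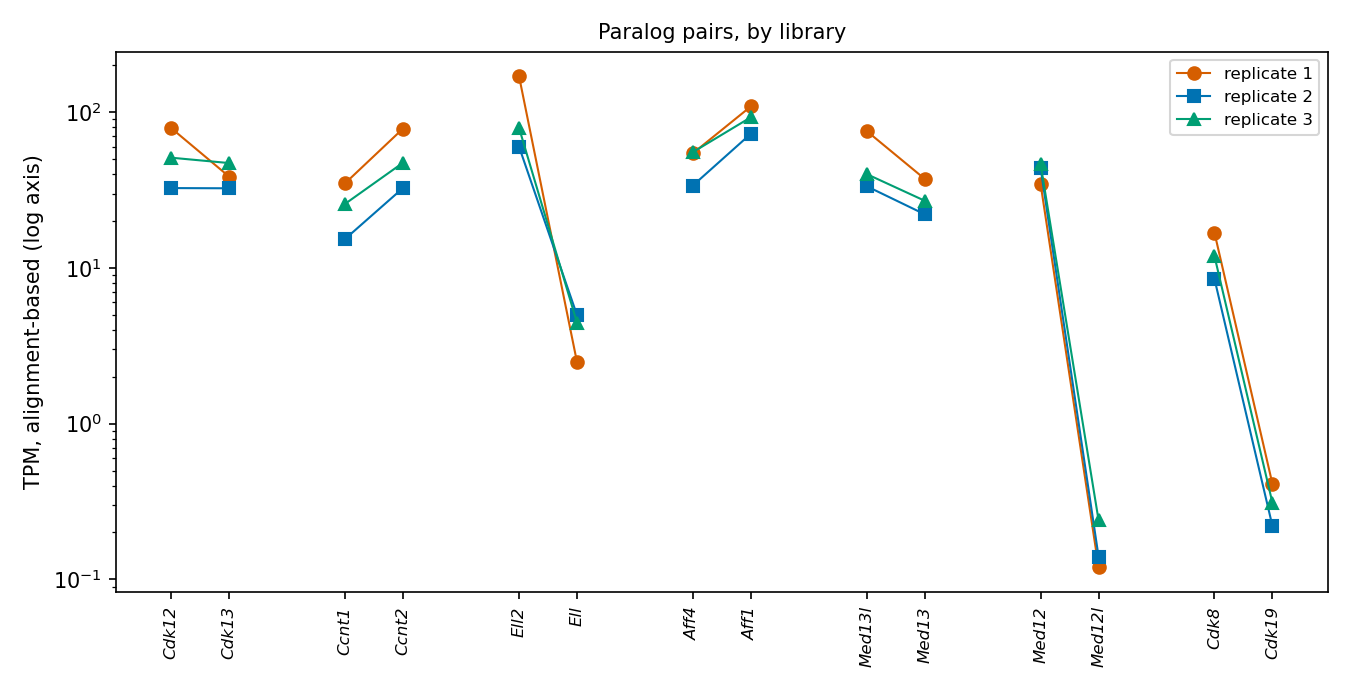
TPM of both genes of 7 paralog pairs in each library, joined by lines (log axis). The lines of Ell2 and Ell, Med12 and Med12l, and Cdk8 and Cdk19 fall steeply in all 3 libraries, while Cdk12 and Cdk13 differ mainly in replicate 1.

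The annotation types some transcripts as retained intron, meaning that they keep sequence that other transcripts of the gene splice out, and their share of each gene's TPM was taken. Chromatin RNA holds transcripts still attached to DNA, and how much of these shares comes from introns not yet spliced was not tested. Among 48 members with a mean of at least 1 TPM the median share was 37.0%, against 29.1% over 8651 protein-coding genes. Such a transcript is annotated for 38 of the 48 members (79.2%), against 66.3% of protein-coding genes. Among genes that have one, the median was 43.2% in members and 45.7% in protein-coding genes. The share was at least 20% in 32 of 48 members (66.7%, against 57.3%) and at least 50% in 13 (27.1%, against 28.2%). Of all 50 members, 14 had a retained-intron transcript as their most abundant isoform and 32 a protein-coding one. This last count was not made over protein-coding genes, so it has no background. Measured as a share of expected counts, which does not weight short transcripts up, the median was 13.9% in members and 11.9% in protein-coding genes.

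Polr2e had the highest share, with 100%, 80.5% and 93.0% of its TPM in 4 retained-intron transcripts in replicates 1, 2 and 3, though from a mean of only 86 expected counts. Med24 followed with 92.1%, 72.3% and 66.2%. Nelfe had 73.4%, 77.9% and 78.8%, and Nelfb 74.9%, 66.1% and 70.1%. By expected counts the means were 38.4% for Nelfe and 54.4% for Nelfb, and the third NELF member, Nelfa, had a mean of 36.7% by TPM and 29.7% by expected counts. Paf1 had 77.8%, 66.5% and 75.2%, and a mean of 43.3% by expected counts. Among the highest members, Med15 had 63.6%, 61.0% and 62.1%, and Ell2 had 66.5%, 56.1% and 59.3%, and in both the share of expected counts was about the same, 61.7% and 57.9%. Of the 38 members with such a transcript, 33 had a lower mean share by expected counts than by TPM. Polr2b had a mean of 62.7% by TPM and 6.55% by expected counts, from 3 retained-intron transcripts. The highest of them by TPM, Polr2b-203, has 261 bases and held 42.7% of the gene's TPM. Ccnk had 58.8% by TPM and 7.36% by expected counts, and Tbp 50.8% and 3.86%. By TPM and by expected counts, Ints1 had means of 63.5% and 22.4%, Ctr9 61.4% and 32.7%, Cdk7 59.2% and 34.2%, and Larp7 49.8% and 33.9%. Likewise Cdk13 had 47.1% and 12.5%, Ccnt2 45.9% and 23.3%, Aff1 44.7% and 14.5%, Cdk8 43.5% and 28.9%, Xrn2 43.0% and 9.33%, and Med12 40% and 15.6%. Gtf2b went the other way, with 46.3% by TPM and 67.4% by expected counts, as did Leo1 with 34.0% and 47.3%. Cdk9 also did, with 11.6% and 17.9%, and Polr2e and Med24 were slightly higher by expected counts. The remaining members at 20% or more were Ints11, Med13l, Aff4, Med23, Nelfa, Polr2c, Leo1, Supt5, Ccnt1, Med17 and Supt16, between 27.8% and 38.5% by TPM. Supt6, with 6.94%, 3.65% and 3.64%, had the lowest mean share by TPM of the members that have such a transcript; by expected counts Med13 was lowest at 0.634%. A total of 12 members have none, among them Polr2a, Cdk12 and Hexim1.

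The most abundant isoform of Cdk9 by TPM was Cdk9-208, of 846 bases, with 33.8, 25.2 and 34.8 TPM. It is annotated as a target of nonsense-mediated decay. Transcripts of that type made up a mean of 40.2% of Cdk9 TPM and retained-intron transcripts 11.6%. The coding isoform Cdk9-201 had 16.6, 20.8 and 26.7 TPM, less than Cdk9-208 in every library. By expected counts, which are not divided by length, the order was the reverse in every library, with 302, 404 and 445 counts for Cdk9-208 and 354, 836 and 845 for Cdk9-201. Coding transcripts together made up a mean of 48.2% of Cdk9 TPM, with 36.5%, 54.6% and 53.6% in replicates 1, 2 and 3. The TPM of the alignment-free table also put Cdk9-208 first, with 34.99, 16.8 and 32.6 TPM for Cdk9-208 and 12.9, 13.9 and 17.5 TPM for Cdk9-201. Ell2 was spread over several isoforms of similar TPM: its 3 retained-intron isoforms had means of 23.2, 21.4 and 20.1 TPM, and the full-length coding Ell2-201 had 22.99. Ccnt1 depended on the quantification, with a mean retained-intron share of 32.5% in the alignment-based and 78.0% in the alignment-free table.

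**Figure D3:**
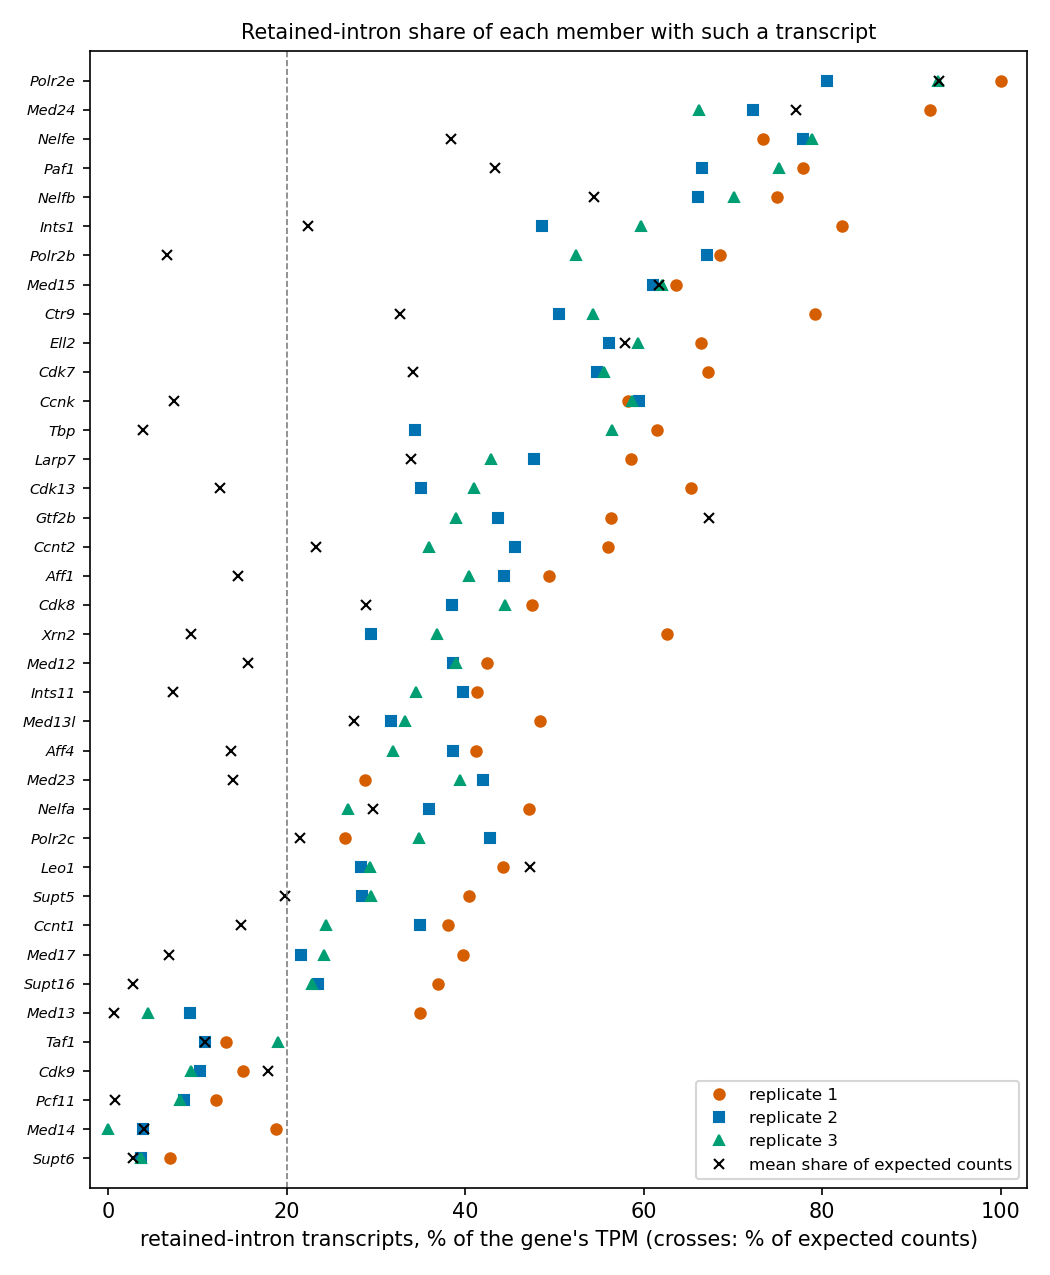
Share of each gene's TPM in retained-intron transcripts, by library, for the 38 members that have one; crosses give the mean share of expected counts and the dashed line 20%. Replicate 1 gives the highest share in 33 of the 38.

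Several members hold other annotated genes within their bodies, and 20 of 50 overlap at least 1 with a mean of 10 or more expected counts, 5 on the same strand. The same count was not made for other genes, so whether these shares are usual is not known. The intron of Ell2 holds Gm48302, a sense-intronic entry of 1884 bases, with 54.6, 22.3 and 19.0 TPM. Med13l, whose gene spans 204760 bases, holds 6 loci that the annotation marks as awaiting experimental evidence, 5 of them on its strand. The highest of these, Gm43788, had 104, 21.8 and 26.9 TPM, against 75.5, 33.4 and 39.97 TPM for Med13l itself. All 6 were highest in replicate 1, as Med13l was. How reads in these overlaps were divided is not stated in the sources at hand. Longer gene bodies went with higher levels in the members (Spearman 0.41 across 49 genes) more than in all tested protein-coding genes (0.15 across 10530); genes are not independent replicates, and these values describe only these genes.

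The 2 quantifications were compared as the level in the alignment-based table minus the level in the alignment-free table, each centred on that table's own protein-coding median in the library. By limma treat at the same 2-fold bound, 0 of 49 members were called higher and 0 lower in the alignment-based table. The background was 0.633% higher and 1.90% lower over 13427 genes. The differences of centred levels ranged from -0.89 ± 0.16 (Polr2g) to 0.78 ± 0.32 (Hexim1) on the log2 scale. The uncentred TPM of single members could lie further apart. Polr2g had 7.34, 4.92 and 9.35 TPM in the alignment-based table, against 32.4, 11.5 and 23.8 TPM in the alignment-free one. Among the other pathway genes, Taf12 and Gtf2h5 were called lower in the alignment-based table, by differences of -1.73 ± 0.32 (adjusted p = 0.044) and -1.61 ± 0.20 (adjusted p = 0.035).

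Replicate 1 stood apart from the other two for many members. Its level was the lowest of the 3 in 27 of 49 tested members (55.1%) and the highest in 18 (36.7%), against 43.6% and 40.4% of tested protein-coding genes. The median SD of the level over libraries was 0.34 in members and 0.27 in protein-coding genes. Nelfe (GC content 57.9%) lay 1.25 log2 units under the mean of replicates 2 and 3, a difference of -1.25, and Ell, Supt5 and Nelfb had differences of -1.01, -0.99 and -0.98. Tbp (GC content 42.7%) had a difference of 1.11, Ell2 0.99 and Xrn2 0.82. The difference fell with the GC content of the longest coding transcript among members (Spearman -0.55 across 49 genes) and among all tested protein-coding genes alike (-0.52 across 10501). It rose with the length of the gene body, more in members (Spearman 0.42 across 49 genes) than in tested protein-coding genes (0.12 across 10530). In the tertile of genes with the lowest GC content, replicate 1 was higher in 10 of 15 members (66.7%, against 73.8% of protein-coding genes). In the middle tertile it was higher in 7 of 18 (38.9%, against 47.1%), and in the tertile with the highest GC content in 3 of 16 (18.8%, against 23.3%), among them Med26 and Med15. Retained-intron shares were also highest in replicate 1, in 33 of the 38 members with such a transcript (86.8%), against 66.6% of protein-coding genes. Replicate 1 had the most starting RNA, the smallest share of counts at the ribosomal RNA locus and the fewest counts, and the part of each in these differences was not tested.

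**Figure D4:**
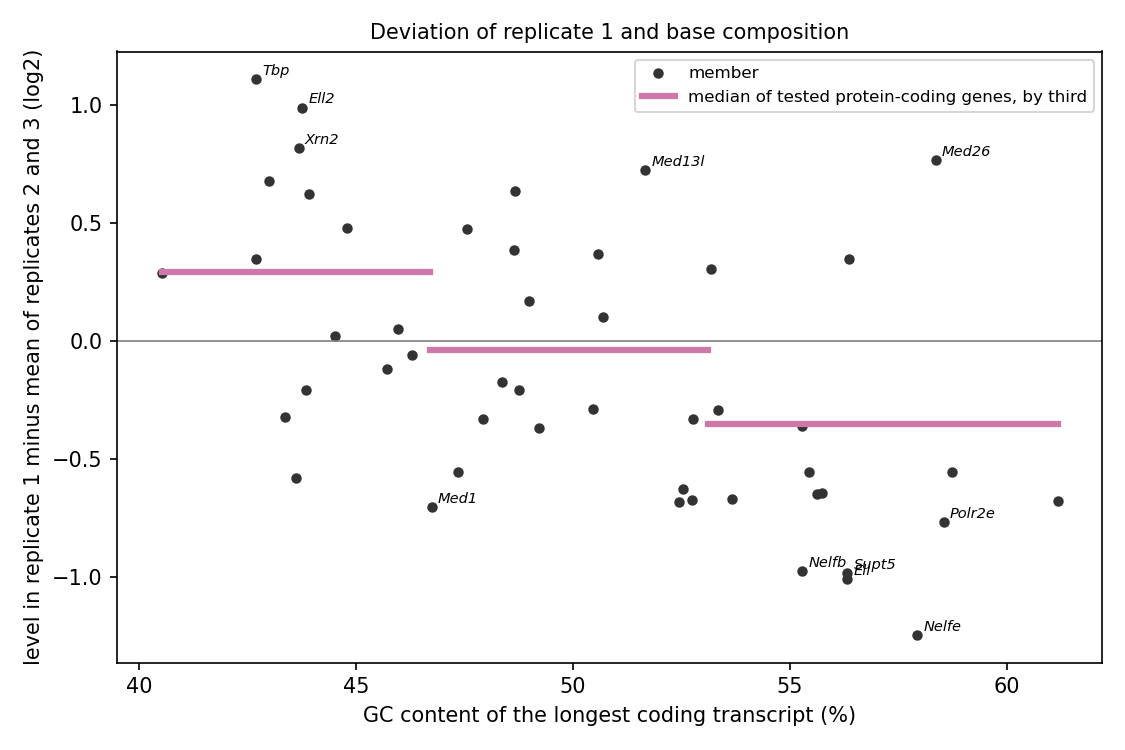
Level in replicate 1 minus the mean of replicates 2 and 3 for each tested member, against the GC content of its longest coding transcript; bars give the median of all tested protein-coding genes in each tertile of GC content. Nelfe, Nelfb, Ell and Supt5 lie at the lower right, Tbp, Ell2 and Xrn2 at the upper left, and Med26 and Med13l off the trend.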

How the data were processed

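Total RNA-seq of chromatin-fraction RNA was used from 3 replicates of 1 group, with group, replicate and amount taken from the labels. The deposited gene and transcript tables give expected counts (not whole, not scaled) and TPM (scaled by the authors over all entries) from an alignment to the mm10 genome with GENCODE M21, per the deposited description files; a second deposited transcript table gives TPM made without an alignment file and was summed to genes. The aligner, its version, read filters, the strand setting and the treatment of reads that map to several places were not stated in the labels or headers read. The test took in genes averaging 10 or more expected counts (pseudocount 1, bound 1 log2 unit, Benjamini-Hochberg at 0.05) with limma 3.58.1 treat in R 4.3.3, intercept only; edgeR 4.0.16 and DESeq2 1.42.0 on rounded expected counts were alternatives. On simulated data the test was checked before use. The members and lists were chosen with earlier results of these data known. The p-values measure the spread between 3 libraries of 1 donor label, which may be technical.

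Every member was given with its TPM; levels and adjusted p were given for called members, for the highest and lowest uncalled member of each role, for the 10 highest other pathway genes above, for those below and for paralogs, except that 1 item is not reported here. Retained-intron shares were named at 20% or more, where the gene averaged 1 TPM or more. Other genes, such as Supt6, Cdk9, Srsf5 and Gm48302 in the isoform, overlap and list results, were chosen after their values were seen. Of the other pathway symbols, 1 was not found in M21. A count of 0 allows up to 3 counts in a library, which covers counting error only. Promoters came from RefSeq (GRCm38.p6).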

Additional observations from a re-analysis of the deposited data

How the results depend on the processing

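Members above numbered 20, and between 20 and 23 with the alignment-free TPM, posterior mean TPM, a pseudocount of 0.1, the median of all genes as reference, a variance trend, DESeq2 and edgeR; the last was a quasi-likelihood F test at the bounds, chosen after seeing the data, since glmTreat was not run (it takes no intercept-only design). The count minimum, which also sets which genes make up the reference, moved it most: 34 above and 0 below with no minimum (all genes: 21.9% and 24.6%), 12 above and 0 below with a minimum of 100 (all genes: 17.8% and 10.6%), where Polr2d is not tested; 12 members were above in every setting and 19 in all but the last. Members below numbered 1, and 3 with alignment-free TPM, 2 with posterior mean TPM and 2 with a pseudocount of 0.1. Other pathway genes above numbered 16, with 33 under no minimum and 3 under 100; those below numbered 11, with 2 under no minimum and 17 under a pseudocount of 0.1. The median member level of 1.20 was 1.05 with posterior mean TPM, 1.34 with a pseudocount of 0.1, 2.14 with no minimum, 0.54 with a minimum of 100 and 1.40 with the median of all genes. The median retained-intron share of 37.0% was 42.2% with decay targets added and 13.9% as a share of expected counts (added after seeing the data). Leaving out 1 library each gave 19 to 24 members above and 0 to 1 below, 11 to 16 other pathway genes above and 5 to 14 below. No paralog difference changed sign. With 1 group there are no groups to pair by replicate number. Depth limits Polr2d, Polr2h and Supt4a most, at means of 11, 6 and 21 expected counts.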
